A study of Rattus norvegicus with 24 samples.

Results

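The 9 complement genes expressed in, or acting on, blood cells followed here across 6 groups of rats were the components C1qa, C3, Cfb, Cfd and Cfp, the receptors C3ar1 and C5ar1, and the membrane regulators Cd55 and Cd59. They were taken as every probe, controls left out, whose gene name in the array design equals one of these 9 symbols, which gave 10 probes of 30367, since Cd55 has 2 probes. The 24 two-colour arrays measured blood RNA of male Sprague Dawley rats that were 8 weeks old at the start and were fed for 6 weeks. The C-G0, C-G1 and C-G2 groups received 2 saline injections 7 days apart, and the LPS-G0, LPS-G1 and LPS-G2 groups received 2 intravenous injections of E. coli lipopolysaccharide (LPS, 10 mg/kg) on the same schedule to induce inflammation of the gut. G0 is the semi-synthetic diet alone, G1 the diet with oat beta-glucan of high molecular weight and G2 the diet with oat beta-glucan of low molecular weight. Each group held 4 arrays, and each array set 1 RNA sample against a pool of RNA from the rats of the experiment. The titles of LPS-G0 replicates 3 and 4 name LPS, but another label field of these 2 arrays says control, and they were kept in LPS-G0. By the study's methods an array of C-G0 or of an LPS group carried RNA of a single animal. The methods do not describe the C-G1 and C-G2 arrays, and for these the p-values measure the spread between RNA samples.

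Complement is a cascade of plasma proteins that marks microbes and damaged cells for uptake or lysis. The classical pathway starts when C1q, of which C1qa encodes a chain, binds antibody or other targets. The alternative pathway amplifies the cleavage of C3, with factor B (Cfb) and factor D (Cfd) as its proteases and properdin (Cfp) as the protein that stabilises its convertase. The fragments C3a and C5a attract and activate leukocytes through C3ar1 and C5ar1, while Cd55 and Cd59 protect the host's own cells, Cd55 by dissociating convertases and Cd59 by blocking the membrane attack complex. Liver makes most plasma complement. In blood, properdin is made mainly by neutrophils and monocytes, C5ar1 is abundant on neutrophils and monocytes, and Cd59 is carried by red cells and leukocytes.

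The probes that measured these transcripts are 60 bases long, and those of C3, Cfp and C1qa are shown whole. The results on each gene except Cd55 rest on a single probe. The sequences were read from the array files.
C3: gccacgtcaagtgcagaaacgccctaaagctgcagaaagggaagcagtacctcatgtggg
Cfp: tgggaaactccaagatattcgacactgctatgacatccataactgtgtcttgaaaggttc
C1qa: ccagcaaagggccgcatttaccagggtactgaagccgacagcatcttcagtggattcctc
By the array design the C3 probe starts at base 4797 of its transcript and lies on sequence without a chromosome in rn4, the C1qa probe lies at chr5:155662578-155662637 on the minus strand, and the Cfp probe covers chrX:12586544-12586745 on the minus strand. The Cfp positions span 202 bases of genome for 60 bases of probe. Of the 4 other genes that were measured on every array, the first 30 bases of the probe are given.
Cfb: taaggagcttcctgctgggagggtgagggc
Cfd: tgagtgttaacgtgacggcctgaggggaca
C5ar1: ttcaaaaatggtattcgacagaacccaaca
Cd59: agctgcattttcagctagaaaacataggga
These lie at chr20:4077743-4077802 for Cfb (plus strand), chr7:11325547-11325604 for Cfd (minus strand) and chr3:89244707-89244766 for Cd59 (plus strand) in rn4, and the C5ar1 probe has no position in the design. In the RefSeq gene table (GRCr8) 8 of the 9 symbols were found as such, and Cd59 was found under its present symbol Cd59b. The transcript part (coding or untranslated) of each probe was not analysed here.

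The 250 bases before the transcription start of C3 and Cfp are shown because these were the only complement genes with an unadjusted p under 0.05 in C-G2 vs. C-G0. The sequences are RefSeq's (GRCr8, gene strand): C3 at chr9:2201340-2201589 on the minus strand and Cfp at chrX:3715301-3715550 on the plus strand. Capitals mark matches on either strand of the 4 motifs searched. The ETS family's core was searched as GAGGAA. The paired half-sites of C/EBP factors were searched as TTGCNNAA. The others were the TATA box, searched as TATAAA, and the core of the interferon-stimulated response element. The matches shown do not overlap each other.
C3: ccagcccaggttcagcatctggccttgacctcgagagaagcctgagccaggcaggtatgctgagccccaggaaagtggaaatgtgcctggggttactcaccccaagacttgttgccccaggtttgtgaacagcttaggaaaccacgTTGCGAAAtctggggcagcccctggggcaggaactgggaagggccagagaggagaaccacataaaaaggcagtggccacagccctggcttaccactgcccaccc
Cfp: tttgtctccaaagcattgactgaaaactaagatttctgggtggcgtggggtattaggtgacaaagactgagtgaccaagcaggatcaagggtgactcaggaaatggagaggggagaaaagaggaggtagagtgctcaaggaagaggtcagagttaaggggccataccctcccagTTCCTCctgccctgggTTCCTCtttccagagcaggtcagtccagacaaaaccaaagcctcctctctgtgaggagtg
C3 held 1 match of TTGCNNAA, which began 104 bases before the start, and 9.22% of 33469 promoters of the same length held that motif. Cfp held 2 matches of GAGGAA on the opposite strand, beginning 76 and 60 bases before the start, and 23.3% of all promoters held that motif. TATAAA and the interferon-stimulated core were found in 12.9% and 3.41% of all promoters and in neither of these. Promoter entries were present for 6 of the 9 genes.

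The genes measured on every array were 6: C3, C5ar1, Cfp, Cfd, Cfb and Cd59 were well above background in Cy3, by the scanner software's own flag, on 24 of 24 arrays. Cd59 was the brightest of these probes, with a processed Cy3 signal of 994 to 1949, and Cfb the dimmest by its median of 206; signals of different probes do not rank the transcripts. C1qa was well above background on 9 of 24 arrays, with 2 each in C-G0, C-G1, LPS-G0 and LPS-G1, 1 in LPS-G2 and 0 in C-G2. Cd55 was well above background on 3 arrays with its leading probe and on 2 with the other, and C3ar1 on none. In the Cy5 channel C3ar1 passed on 14 arrays, C1qa on 18 and the probes of Cd55 on 21 and 24. These 3 genes did not pass the filter on dim probes, so that the fits as reported hold the 6 others. With no filter all 10 probes were fitted and 0 were called in each comparison. C1qa entered 4 of the 58 exact permutation tests given below.

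**Figure D1:**
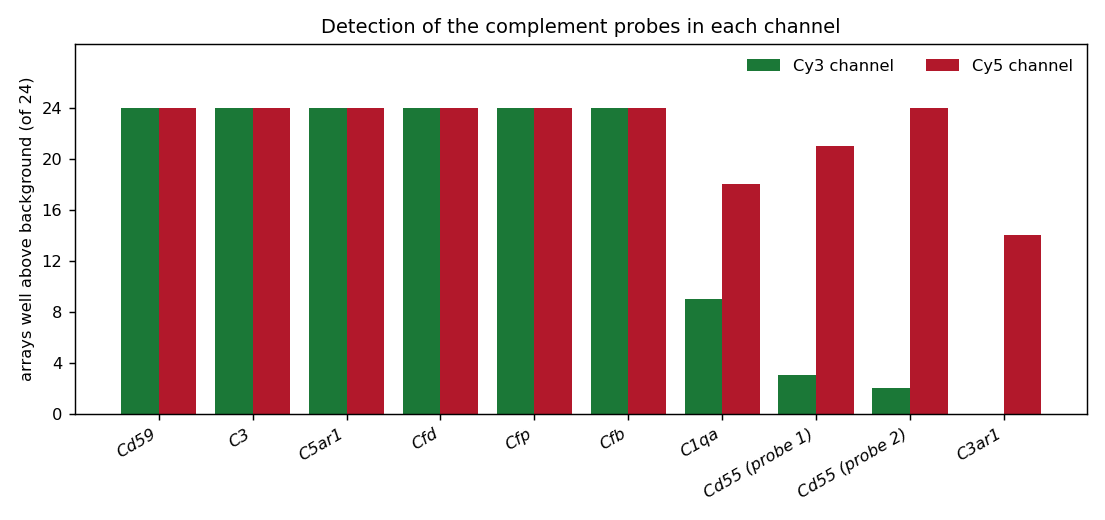
Number of arrays (of 24) on which each complement probe was well above background, in the Cy3 channel (green) and the Cy5 channel (red); probe 1 of Cd55 is the leading one. The probes of 6 genes reach 24 in both channels, while C1qa, Cd55 and C3ar1 reach 9, 3, 2 and 0 in Cy3.

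All ratios are log2 of the Cy3 over the Cy5 signal. The labels place the rat sample in Cy3 and the pool in Cy5, while the study's methods state the reverse, so the direction of every ratio here opposes the methods' dye statement and is only likely. The spread within groups was larger in Cy3 than in Cy5 for 95.3% of 7074 probes that passed the background flag on each array in both dyes, and for 6 of the 6 complement genes. Over the 24 arrays, 7786 to 15385 probes were well above background in Cy3. The arrays lay on 3 slides of 8, each slide held all 6 groups, and each slide had its own scan time.

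No complement gene passed the test in any of the 13 comparisons. The tests used limma, with Benjamini-Hochberg adjustment over 10313 probes for the 3 comparisons of the study (16 arrays) and over 10708 probes for the others (24 arrays), and called a probe at an adjusted p under 0.05. Of all probes, 0.0097% were called in LPS-G0 vs. C-G0, 8.93% in LPS-G1 vs. LPS-G0 (0.989% with a change of at least 2-fold), while LPS-G2 vs. LPS-G0 had 0%. Single arrays moved these counts: the 921 probes called in LPS-G1 vs. LPS-G0 became 0 when replicate 1 or 4 of LPS-G0, or replicate 4 of LPS-G1, was left out, between 2 and 11 without LPS-G0 replicate 2, LPS-G1 replicate 2 or LPS-G1 replicate 3, and 1936 without C-G0 replicate 1. They were also 0 without the 2 arrays of conflicting labels. Between the saline groups 0.028% were called in C-G1 vs. C-G0, 0.028% in C-G2 vs. C-G0 and 0% in C-G1 vs. C-G2. Leaving out C-G0 replicate 1 raised the count in LPS-G0 vs. C-G0 from 1 to 1136, and leaving out C-G0 replicate 4 raised those of C-G1 and C-G2 against C-G0 from 3 to 968 and from 3 to 355. Between LPS and saline within a diet the shares were 0.00934% for G1 and 0% for G2, for LPS-G1 vs. LPS-G2 0%, for LPS averaged over the diets 0.0187%, for the interactions of G1 and of G2 with LPS 0% each, and for any difference among the 6 groups 0.00934%. At an unadjusted p under 0.05 the complement genes gave 1 in LPS-G1 vs. LPS-G0 (Cd59, where 26.9% of all probes reached it), 1 for LPS-G2 against the same control (C5ar1, 8.23%) and 2 in C-G2 vs. C-G0 (C3 and Cfp, 13.3%), and in the F test over 6 groups 1 (Cfp, 23.3%). The 9 other comparisons gave 0 at that level, where the background was 15.2% in LPS-G0 vs. C-G0, 27.9% in C-G1 vs. C-G0, 15.4% in C-G1 vs. C-G2, 4.21% in LPS-G1 vs. LPS-G2 and 9.61% for LPS over the diets. It was 2.81% in LPS-G1 vs. C-G1, 1.09% in LPS-G2 vs. C-G2, and 3.01% and 5.57% for the interactions of G1 and G2. In the exact permutation tests 1 of 58 had a p under 0.05, and the smallest adjusted p was 0.603.

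**Figure D2:**
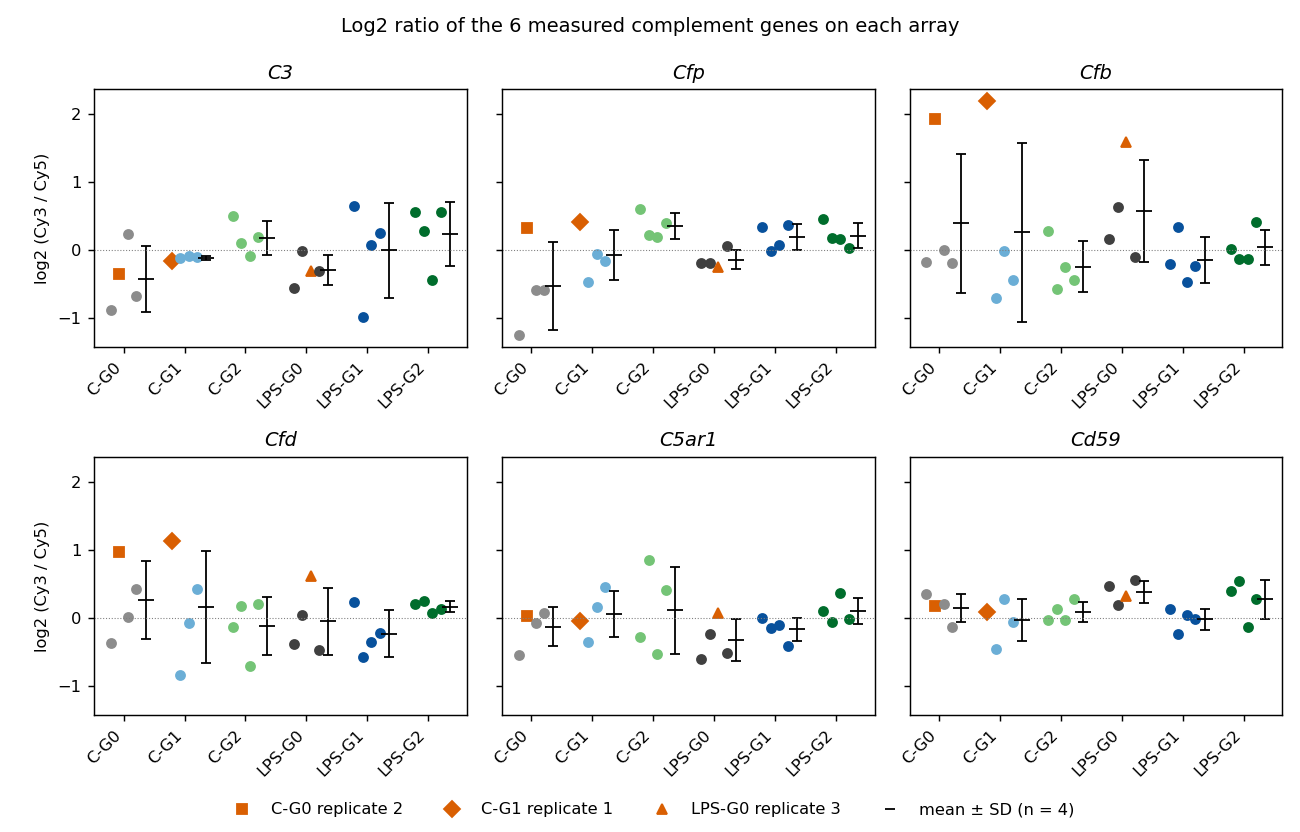
Log2 ratio (Cy3 over Cy5, vertical axis) of the 6 measured genes on each of the 24 arrays by group, with the mean ± SD of each group of 4 in black; orange symbols mark C-G0 replicate 2, C-G1 replicate 1 and LPS-G0 replicate 3. The groups overlap in most panels, and the orange arrays are the highest of all for Cfb and Cfd.

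Properdin (Cfp) gave the smallest unadjusted p of the complement genes. Its log2 ratios were -1.25, 0.32, -0.58 and -0.58 on the 4 arrays of C-G0 and 0.60, 0.22, 0.19 and 0.40 on those of C-G2. C-G0 replicate 2 therefore lay among the C-G2 arrays, and the other 3 C-G0 arrays lay below all of them. The group means were -0.52 ± 0.64 (SD, n = 4) in C-G0 and 0.35 ± 0.19 (SD, n = 4) in C-G2. The difference was 0.88 on the log2 scale (1.83-fold, SE 0.23, 95% interval 0.40 to 1.35, unadjusted p = 0.000982, adjusted p = 0.172). Without C-G0 replicate 2 it was 1.16 with an adjusted p of 0.0431, and the difference then passed the test. Without C-G0 replicate 1, the lowest array, it was 0.63 with an adjusted p of 0.278. A fit on the arrays of these 2 groups alone gave an adjusted p of 0.609. The exact permutation test gave p = 0.0857 and an adjusted p of 0.603. Within the 3 slides the difference was 1.06, 0.80 and 0.88.

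The other groups lay between these. Cfp read 0.42, -0.47, -0.06 and -0.15 in C-G1 and -0.19, -0.19, -0.25 and 0.07 in LPS-G0. It read 0.34, 0.00, 0.08 and 0.37 in LPS-G1 and 0.46, 0.18, 0.17 and 0.03 in LPS-G2. From the highest mean to the lowest the order was C-G2, LPS-G2, LPS-G1, C-G1, LPS-G0 and C-G0, and the only step between neighbours larger than the pooled SD of 0.34 was the last one, 0.38 between LPS-G0 and C-G0. Against LPS-G0, Cfp differed by 0.34 (95% interval -0.16 to 0.84) for G1 and by 0.35 for G2 (95% interval -0.15 to 0.85). The F test over the 6 groups gave an adjusted p of 0.131.

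C3, the component on which the pathways converge, showed a like order of means with larger overlap. On the arrays of C-G0 it read -0.87, -0.35, 0.23 and -0.67, and on those of C-G2 0.51, 0.11, -0.09 and 0.20. The highest C-G0 array lay above 3 of the C-G2 arrays. The difference was 0.60 on the log2 scale (SE 0.28, 95% interval 0.02 to 1.18, unadjusted p = 0.0437, adjusted p = 0.357), and within the slides it was 1.12, -0.12 and 0.73. In C-G1 the 4 arrays lay between -0.15 and -0.09, the narrowest group of this gene. C3 read -0.55, -0.01, -0.30 and -0.30 (LPS-G0), 0.64, -0.98, 0.08 and 0.26 (LPS-G1), and 0.56, 0.28, -0.43 and 0.55 (LPS-G2). The LPS-G1 arrays thus spanned the lowest and the highest value of all 24. The means ran from LPS-G2 (0.24) over C-G2, LPS-G1, C-G1 and LPS-G0 to C-G0 (-0.42), and no step between neighbours exceeded the pooled SD of 0.42. LPS-G2 lay above LPS-G0 by 0.53 (95% interval -0.13 to 1.20).

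C5ar1, the receptor for C5a, had its lowest mean in LPS-G0. It read -0.60, -0.23, 0.08 and -0.52 there, 0.10, -0.05, 0.37 and -0.02 in LPS-G2, and 0.00, -0.15, -0.10 and -0.40 in LPS-G1. LPS-G0 replicate 3 was the only LPS-G0 array within the range of LPS-G2. The difference LPS-G2 vs. LPS-G0 was 0.42 (SE 0.18, 95% interval 0.04 to 0.80, unadjusted p = 0.0334, adjusted p = 0.597), and within the slides it was 0.52, -0.13 and 0.69. In the saline groups the values were wider in C-G2 (-0.28, 0.86, -0.53 and 0.42) than in C-G0 (-0.54, 0.03, -0.08 and 0.08) or C-G1 (-0.04, -0.35, 0.17 and 0.46). No step in the order of means, C-G2, LPS-G2, C-G1, C-G0, LPS-G1 and LPS-G0, exceeded the pooled SD of 0.36.

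Neutrophil genes moved with C5ar1. The median log2 ratio of the 5 of 12 neutrophil markers that were above background on every array (Camp, Csf3r, Cxcr2, S100a8 and S100a9; Ltf was above on none) ran from -0.65 to -0.26 over the LPS-G0 arrays and from -0.20 to 0.72 over the LPS-G2 arrays. None of the 5 was called in LPS-G2 vs. LPS-G0, where 0% of all probes were called, and their median difference was 0.65. Across the 24 arrays C5ar1 followed that median with Pearson's r = 0.78 and Spearman's rho = 0.68, with r = 0.64 without the 2 arrays farthest from the middle and 0.39, 0.83 and 0.97 within the slides. The points share arrays and their normalization, and the part of neutrophil RNA in the C5ar1 values was not tested. In whole blood fewer cells of a type and less RNA per cell cannot be told apart.

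Cd59 was the only one of the 6 genes measured on every array with arrays of 2 compared groups that did not overlap. The dim probes were left out of this count, and the other probe of Cd55 did not overlap in C-G1 vs. C-G2. It read 0.47, 0.19, 0.32 and 0.56 in LPS-G0 and 0.13, -0.23, 0.05 and -0.01 in LPS-G1, so that every LPS-G0 array lay above every LPS-G1 array. Of all probes tested in this comparison 21.9% had arrays that did not overlap. In the 8 other pairs of groups 0 of the 6 genes were separated, where the share of all probes was 5.03% in LPS-G0 vs. C-G0, 10.5% for LPS-G2 against LPS-G0, 7.04% in C-G1 vs. C-G0, 2.62% in C-G2 vs. C-G0, 2.73% in LPS-G1 vs. C-G1, 1.07% in LPS-G2 vs. C-G2, 6.57% in LPS-G1 vs. LPS-G2 and 3.22% in C-G1 vs. C-G2. Cd59 did not pass the test, with a difference of -0.40 on the log2 scale (SE 0.16, 95% interval -0.75 to -0.06, unadjusted p = 0.0251, adjusted p = 0.129). The exact permutation test gave p = 0.0286, the smallest the 70 arrangements allow, and an adjusted p of 0.603. Within the slides the difference was -0.20, -0.41 and -0.57. With array weights it was -0.43 with an adjusted p of 0.0234, a setting that called 2844 of all 10313 probes in this comparison. Without the 2 arrays of conflicting labels it was -0.34 with an adjusted p of 0.376. In the other groups Cd59 read 0.36, 0.17, 0.21 and -0.13 (C-G0), 0.09, -0.45, 0.28 and -0.06 (C-G1), -0.02, 0.13, -0.02 and 0.27 (C-G2), and 0.40, 0.54, -0.13 and 0.29 (LPS-G2). The order of means was LPS-G0, LPS-G2, C-G0, C-G2, LPS-G1 and C-G1, with no step above the pooled SD of 0.22.

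Red cell genes moved with Cd59 in the same comparison. The median log2 ratio of 8 erythroid markers, all above background on every array, ran from 0.22 to 0.32 over the LPS-G0 arrays and from -0.73 to 0.03 over the LPS-G1 arrays, and 2 of the 8, Epb42 and Klf1, fell in LPS-G1 vs. LPS-G0, where 8.93% of all probes were called. Cd59 followed the erythroid median over the 24 arrays with r = 0.54 and rho = 0.42, with 0.45 without the 2 farthest arrays and 0.59, 0.78 and -0.04 within the slides. The mast cell list, which had 1 gene above background on every array (Mcpt1l1) and was chosen after the values were seen, followed Cd59 more closely (r = 0.65, rho = 0.59). Mcpt1l1 ran from 0.32 to 0.54 over the LPS-G0 arrays and from -0.37 to -0.07 over the LPS-G1 arrays, which also did not overlap. The T cell median went against Cd59 (r = -0.60, rho = -0.48, -0.44 without the 2 farthest arrays), with 0.08, -0.82 and -0.57 within the slides. The B cell median (r = -0.51) and Ahsg, the hepatocyte gene above background on every array (r = -0.49), also went against Cd59. The part of RNA from these cells in the Cd59 values was not tested.

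**Figure D3:**
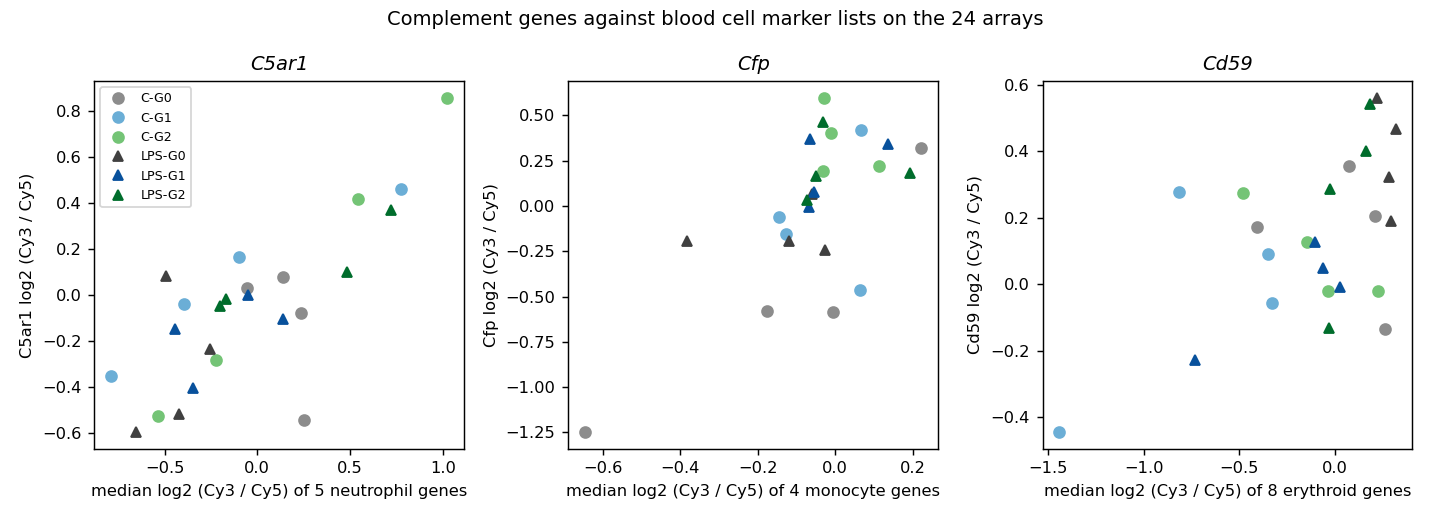
Log2 ratio of C5ar1, Cfp and Cd59 (vertical axes) against the median log2 ratio of 5 neutrophil, 4 monocyte and 8 erythroid genes (horizontal axes) on the 24 arrays; circles are saline and triangles LPS groups. The rise from left to right corresponds to r = 0.78, 0.67 and 0.54, and in the middle panel the point at the lower left is C-G0 replicate 1.

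Monocyte genes moved with Cfp, though less so once 2 arrays were left out. The median of the 4 of 10 markers above background on every array (Cd68, Csf1r, Cx3cr1 and Lyz2; Cd163 was above on none) ran from -0.65 to 0.22 in C-G0 and from -0.03 to 0.11 in C-G2. Cfp followed it with r = 0.67 and rho = 0.50 over the 24 arrays, with 0.37 without the 2 farthest arrays and 0.88, 0.51 and -0.01 within the slides. None of the 6 monocyte markers tested was called in C-G2 vs. C-G0, where 0.028% of all probes were called. The part of monocyte RNA in the Cfp values was not tested. The median of 3 cytotoxic cell genes also moved with Cfp (r = 0.73, rho = 0.53, 0.46 without the 2 farthest arrays, and 0.76, 0.76 and 0.60 within the slides), with a mean of -0.52 in C-G0 and 0.06 in C-G2. Of the other marker lists, 1 of the 5 cytotoxic cell genes tested (Klrk1) fell in LPS-G1 vs. LPS-G0, where 8.93% of all probes were called, and no gene of the B cell, T cell, platelet or hepatocyte list was called in any comparison. Of 6 hepatocyte genes, Ahsg alone was above background on all arrays.

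Factor B (Cfb), the protease precursor of the alternative pathway, was set apart by 3 arrays. It read -0.17, 1.92, 0.00 and -0.19 in C-G0, 2.19, -0.70, -0.01 and -0.43 in C-G1, and 0.17, 0.64, 1.59 and -0.10 in LPS-G0. C-G0 replicate 2, C-G1 replicate 1 and LPS-G0 replicate 3 were thus the highest, and the other 21 arrays lay between -0.70 and 0.64. The groups without such an array read 0.29, -0.57, -0.24 and -0.43 (C-G2), -0.20, 0.34, -0.47 and -0.23 (LPS-G1), and 0.02, -0.13, -0.13 and 0.42 (LPS-G2). The means were highest in LPS-G0, C-G0 and C-G1, in that order. The largest difference of the study's own comparisons was -0.72 in LPS-G1 vs. LPS-G0 (95% interval -1.59 to 0.15, adjusted p = 0.269), and without the 3 arrays it was -0.38 (adjusted p = 0.250). The 2 spots of the Cfb probe differed by a median of 0.32 on the log2 scale, the widest of the 6 genes.

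Factor D (Cfd), the protease that cleaves factor B, and C1qa were highest on the same 3 arrays. Cfd read 0.97, 1.13 and 0.61 there and -0.83 to 0.43 on the other 21, and C1qa read 1.72, 2.18 and 1.14 against -1.59 to 1.09, with 6 of those 21 arrays well above background. In C-G0 Cfd read -0.36, 0.97, 0.02 and 0.43, in C-G1 1.13, -0.83, -0.08 and 0.43, and in C-G2 -0.13, 0.19, -0.71 and 0.20. In LPS-G0 it read -0.38, 0.05, 0.61 and -0.47, in LPS-G1 it read 0.24, -0.57, -0.35 and -0.22, and for LPS-G2 0.21, 0.25, 0.07 and 0.14. The order of means was C-G0, LPS-G2, C-G1, LPS-G0, C-G2 and LPS-G1, with no step above the pooled SD of 0.51. No difference of Cfd passed the test. LPS-G0 vs. C-G0 gave -0.31 (95% interval -0.88 to 0.26), and the LPS-G2 arrays were the closest together of any group. Across the 24 arrays Cfb and Cfd had r = 0.66 and rho = 0.30, and without the 3 arrays r = 0.06. The genes of the wider pathway C1qb and C6 were also highest on these 3 arrays, with C6, a part of the membrane attack complex, at 2.01, 2.00 and 1.63 and at most 0.58 elsewhere. C6 was well above background on 9 of the other 21 arrays. C2, the classical pathway's counterpart of factor B, read 1.31 and 1.61 on the first 2 and was not well above background on LPS-G0 replicate 3.

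Some genes known from mast cells and from macrophages of the body cavities, though not all those listed, were high on the same arrays. These genes were chosen after the values were seen. The mast cell protease gene Cma1 read 2.64, 2.89 and 1.60 on C-G0 replicate 2, C-G1 replicate 1 and LPS-G0 replicate 3, and at most 1.47 on the others. Selp read 2.10, 2.47 and 1.37 against at most 0.47, and Prg4 2.10, 2.14 and 0.87 against at most 0.39. Tpsab1 (2.50, 2.14 and 1.84 against at most 1.74) and Fn1 (1.31, 1.29 and 0.36 against at most 0.35) were closer to the next array. Folr2, Mcpt1l1, Ms4a2 and Cxcl2 did not have their 3 highest values on these arrays, and Mcpt1l1, which was above background on all 24 arrays, read 0.04, 0.02 and 0.39 there. Of the 10 mast cell genes Fcer1a and Ms4a2 were well above background on no array, and of the 9 cavity macrophage genes Gata6, Cxcl13 and Mrc1 on none. The part of such cells in the Cfb, Cfd and C1qa values was not tested.

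**Figure D4:**
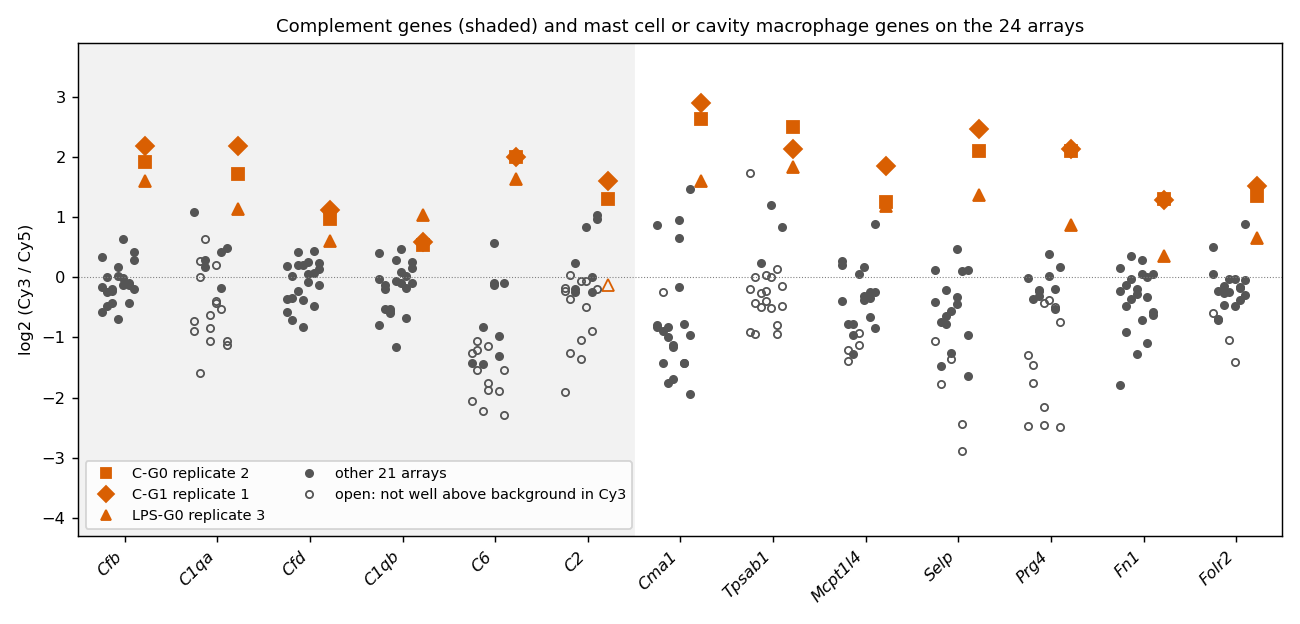
Log2 ratio (Cy3 over Cy5) of 6 complement genes (shaded) and 7 mast cell or cavity macrophage genes on all 24 arrays; orange symbols are C-G0 replicate 2, C-G1 replicate 1 and LPS-G0 replicate 3, and open symbols were not well above background in Cy3. For Cfb the 3 orange points lie at 1.92, 2.19 and 1.59 and the others between -0.70 and 0.64.

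LPS, averaged over the 3 diets, moved none of the 6 measured genes beyond its error in the fit as reported. The differences between the LPS and saline groups were 0.10 for C3 (95% interval -0.23 to 0.43), 0.17 for Cfp (-0.11 to 0.44), 0.02 for Cfb (-0.58 to 0.62), -0.14 for Cfd (-0.54 to 0.26), -0.14 for C5ar1 (-0.44 to 0.15) and 0.15 for Cd59 (-0.05 to 0.35), all on the log2 scale. In permutation tests within diets the lowest p was 0.112, for Cd59, with an adjusted p of 0.629. Each of the 6 intervals excluded a change of 2-fold in either direction. Without the 3 arrays named above, 2 of the 6 genes had an unadjusted p under 0.05, as did 1117 of all 11261 probes. These were Cfp (0.33) and Cfb (0.29), with an adjusted p of 0.50 for each. On the diet without beta-glucan, LPS-G0 vs. C-G0, Cfp differed by 0.38 (95% interval -0.12 to 0.88), and without the 3 arrays named above by 0.70 (adjusted p = 0.467).

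The beta-glucans of high and of low molecular weight were compared under LPS and without it, which made 12 comparisons over the 6 genes. In LPS-G1 vs. LPS-G2 all 6 genes had the lower mean in LPS-G1, by -0.39 for Cfd (95% interval -1.09 to 0.30), -0.29 for Cd59 (-0.64 to 0.06), -0.27 for C5ar1 (-0.77 to 0.24), -0.24 for C3 (-0.82 to 0.34), -0.19 for Cfb (-1.23 to 0.85) and -0.02 for Cfp (-0.49 to 0.46). The median of the 6 was -0.25, and that of all probes tested 0.03. None of the 6 had an unadjusted p under 0.05 in this comparison, a level that 4.21% of all probes reached. The interactions fitted with LPS set G1 and G2 each against G0, and called none of the 6 genes and 0% of all probes. Whether the contrast of G1 with G2 depends on LPS was not tested. Without LPS, Cfp was lower in C-G1 than in C-G2 by -0.42 (95% interval -0.90 to 0.06) and C3 by -0.30 (-0.88 to 0.28), while Cfb and Cfd had the higher mean in C-G1, by 0.50 (-0.54 to 1.54) and 0.27 (-0.42 to 0.97), where C-G1 replicate 1 is the high array.

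**Figure D5:**
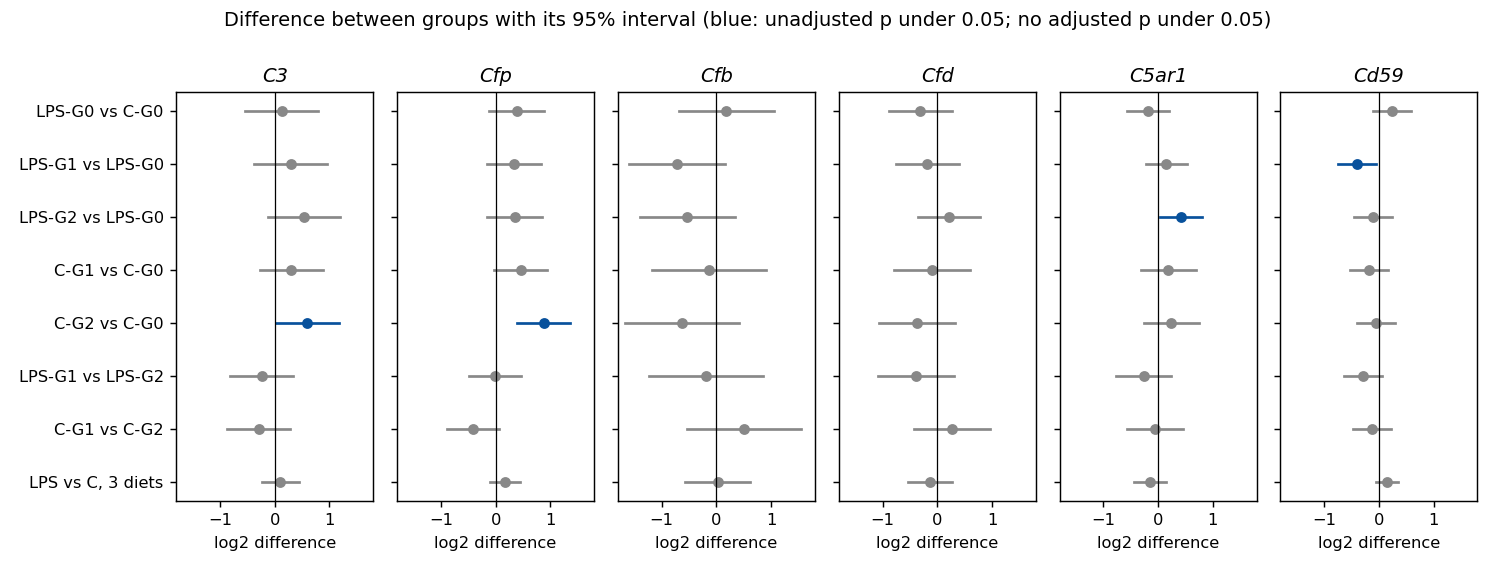
Difference between groups on the log2 scale (points) with its 95% interval (lines) for 6 genes and 8 comparisons; blue marks an unadjusted p under 0.05. The blue differences are 4, C3 and Cfp in C-G2 vs. C-G0, C5ar1 in LPS-G2 vs. LPS-G0 and Cd59 in LPS-G1 vs. LPS-G0, and none has an adjusted p under 0.05.

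The beta-glucan diets shared the LPS-G0 or C-G0 arrays as controls, so their differences are given side by side. Against LPS-G0, the values for G1 and G2 were 0.29 and 0.53 for C3, 0.34 and 0.35 for Cfp, 0.15 and 0.42 for C5ar1, -0.40 and -0.11 for Cd59, -0.18 and 0.21 for Cfd, and -0.72 and -0.53 for Cfb. Against C-G0, the values in C-G1 and C-G2 were 0.30 and 0.60 for C3, 0.46 and 0.88 for Cfp, 0.19 and 0.24 for C5ar1, -0.18 and -0.06 for Cd59, -0.10 and -0.38 for Cfd, and -0.13 and -0.63 for Cfb. The median size of the change over the 6 genes was 0.49 for C-G2 vs. C-G0 and 0.38 for LPS-G2 vs. LPS-G0, beside 0.19 and 0.18 over all probes tested. For G1 it was 0.19 without LPS and 0.31 under LPS, beside 0.32 and 0.29 over all probes. Without the 3 arrays named above, C-G2 vs. C-G0 gave 0.62 for C3, 1.16 for Cfp and 0.30 for C5ar1. It then gave -0.05 for Cd59, -0.12 for Cfb and -0.14 for Cfd. The median of 0.49 thus rested in part on these arrays, through Cfb and Cfd. Whether the 6 genes changed more than all probes was not tested.

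For the dim genes bounds replace differences. A bound is the brighter group's mean normalized Cy3 level over the higher of the dim probe's own level and the lowest signal that passed the background flag, which puts it on the scale of the Cy3 channel and not of the log2 ratio. The brighter group's mean takes in its arrays that were not well above background, so no bound given here is strict. For the other probe of Cd55, LPS-G1 was at least 1.52-fold brighter than LPS-G0 and at least 1.53-fold brighter than LPS-G2, each from 1 array well above background out of 4. The same probe gave at least 2.06-fold for C-G1 over C-G2 and at least 1.74-fold over C-G0, but C-G1 replicate 1, one of the 3 arrays named above, was the only C-G1 array well above background, and without these arrays no bound was left. C1qa gave at least 1.37-fold for C-G0 and 1.48-fold for C-G1 over C-G2, where it was well above background on no array. Without the 3 arrays no bound was left for C-G0, and for C-G1 it was at least 1.00-fold. The leading Cd55 probe gave at least 1.07-fold for C-G1 over C-G0, and no bound without the 3 arrays. For LPS-G1 over LPS-G0 and over LPS-G2, where the other probe gave bounds, the leading probe gave none (0.90 and 0.72).

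The probes most like each measured gene over the 24 arrays overlapped in 1 case, Tnfsf13, which was near both Cfp and C3. C5ar1 was most like Ccl6 (r = 0.88, rho = 0.83), Nudt4 (0.86 and 0.77) and S100a8 (0.86 and 0.79), the last a neutrophil calcium-binding protein. Cfp was most like Capg (0.86 and 0.78), Cd68 (0.85 and 0.84) and Tnfsf13 (0.84 and 0.83), and C3 like Tnfsf13 (0.71 and 0.65), Tmem50b (0.69 and 0.61) and Myo1f (0.69 and 0.68). Cd59 was most like Bcas2 (0.83 and 0.85), Bsdc1 (0.83 and 0.83) and Mkrn1 (0.82 and 0.80). Cfd was like Timp2 (0.78 and 0.60) and Tppp3 (0.77 and 0.70), and Cfb most like Cma1 (0.87 and 0.70), Mcpt1l4 (0.86 and 0.72) and Folr2 (0.84 and 0.74). Without the 3 arrays r was 0.66, 0.62 and 0.60 for Cfb, and 0.60 and 0.64 for Cfd. Among the complement genes themselves, C3 and Cfp had r = 0.56 and rho = 0.53, with 0.77, 0.00 and 0.60 within the slides, and C5ar1 and Cfd r = 0.54 and rho = 0.71, with 0.76, 0.53 and 0.86. The arrays share the reference pool and the normalization.

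Of 59 other complement genes listed, 45 had probes on the array, 57 in all. On every array 8 were well above background: the ficolin gene Fcnb, the integrin chains Itgam and Itgb2 of complement receptor 3, the regulators Clu and Cr1l, the C1q binding proteins Calr and C1qbp, and C1qb, which encodes a second chain of C1q. On no array 9 genes were above background, among them C1r, C1s and C8b. Of the 14 probes tested none was called in any comparison, where at most 8.93% of all probes were called. In LPS-G1 vs. LPS-G0 the smallest adjusted p was 0.060, for C1qb, whose mean was 0.45 in LPS-G0 and -0.31 in LPS-G1 (difference -0.76, 95% interval -1.27 to -0.24). LPS-G0 replicate 3, one of the 3 arrays named above, raised that LPS-G0 mean, with C1qb at 1.03 against 0.28, 0.47 and 0.02 on the others. Fcnb lay higher by 0.91 in LPS-G1 (95% interval 0.20 to 1.62, adjusted p = 0.099) and by 0.78 in LPS-G2 (0.07 to 1.49, adjusted p = 0.597). Itgb2 lay higher in C-G1 and C-G2 than in C-G0, by 0.58 and 0.63, with adjusted p of 0.114 and 0.212. Itgam went the other way in C-G1, by -0.57 (adjusted p = 0.137). Of the 14 probes 3 had an unadjusted p under 0.05 in LPS-G1 vs. LPS-G0, 3 in C-G1 vs. C-G0 and 3 in C-G2 vs. C-G0, where 26.9%, 27.9% and 13.3% of all probes reached that level.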

How the data were processed

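Blood RNA in 24 samples was hybridised to two-colour rat arrays, 4 per group. The authors scanned them with Agilent Feature Extraction (10.10.1.1 per the file headers, 10.7.3.1 per the processing notes). The deposited intensity values are each channel's background-subtracted, Lowess dye-normalized processed signal. The deposited log10 values are the ratio of processed Cy5 over Cy3, and a deposited table of 1511424 values is identical to them. Per the labels rat RNA was in Cy3, so the log10 ratio was converted to log2 and its sign turned. Coordinates are those of the array design (rn4).

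Outlier spots were left out and the spots of a probe averaged (58717 spots, 30367 probes). A probe was tested when each of the 4 arrays of some group carried the Cy3 flag for signal over background. The fits used limma 3.58.1 (R 4.3.3) (moderated two-sided test, Benjamini-Hochberg adjustment over all probes tested, threshold 0.05), on 16 arrays for the comparisons of the study's methods and on 24 for the others. The fits were tested on simulated data. Permutation tests (exact over 70 arrangements, or 100000 resamples within diets) ran in Python 3.11.15 with numpy 2.4.6.

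The leading probe of a gene is the one with the most arrays well above background. Named were all 9 genes, the other complement genes called or above background on all 24 arrays, and the 3 probes most correlated with each measured gene, of which 1 is not reported here. Marker lists covered neutrophils, monocytes, B, T and cytotoxic cells, red cells, platelets and hepatocytes, each described by the median of its genes above background on every array. The genes and lists were chosen with earlier results of these data known, and the mast cell and cavity macrophage lists after the values were seen. Alternatives covered the filter, background correction, channel, slide, replicate number, outlier spots, variance prior, array weights, conflicting labels, samples in the fit and single arrays. The number of arrays limits the precision, and 0 per-sample columns were left unassigned. The methods' removal of probes by absent flags was not repeated.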

Additional observations from a re-analysis of the deposited data

Results flagged for a closer look

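Factor B on C-G0 replicate 2, with a log2 ratio of 1.92 against -0.19 to 0.00 on the other 3 arrays of the group, lay far from the others: its gap to the nearest array was 0.909 of the whole range of the group. It was the only array of the 36 sets of 4 (6 genes in 6 groups) past the 95% limit of Dixon's test, which chance passes in about 1 of 20 groups. Cma1 (2.64), C1qa (1.72) and Cfd (0.97) were also high on this array, and the part of other cells in the value was not tested.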

How the results depend on the processing

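Of 13 counts of complement genes called, all 0, 11 stayed at 0 under each alternative tried. With array weights 1 gene was called in LPS-G1 vs. LPS-G0 (Cd59, -0.43, adjusted p = 0.0234), where 2844 of all 10313 probes were called. Over all alternatives the adjusted p of Cd59 ran from 0.0234 to 0.376. Another alternative, chosen after seeing the data, left out C-G0 replicate 2, C-G1 replicate 1 and LPS-G0 replicate 3. There 1 gene was called in C-G2 vs. C-G0 (Cfp, 1.16, adjusted p = 0.0282), where 2 of all 11261 probes were called. Over all alternatives the adjusted p of Cfp ran from 0.028 to 0.609. Leaving out each array in turn, the complement genes called in C-G2 vs. C-G0 ran from 0 to 1, by C-G0 replicate 2 (Cfp 1.16), with Cfp from 0.63 to 1.16. The cause was not tested.

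The 48 differences of the 6 genes changed sign in 47 of 1644 refits, 33 of them with 1 array left out. None of these was called. With array weights the sign turned for C3 in LPS-G0 vs. C-G0 (-0.0910), C5ar1 in C-G1 vs. C-G2 (0.12), Cfb in LPS-G0 vs. C-G0 (-0.16), in C-G1 vs. C-G0 (0.0173) and for LPS over diets (-0.21), and Cfd in C-G1 vs. C-G0 (0.13). For Cfb and LPS over diets it also turned with normexp and loess (-0.0155), with Cy3 alone (-0.0398) and without the arrays of conflicting labels (-0.0357). With Cy3 alone C3 in LPS-G0 vs. C-G0 was -0.0031, and with slide as a block Cfp in LPS-G1 vs. LPS-G2 was 0.0158. Without the 3 arrays Cfb and Cfd in C-G1 vs. C-G2 were -0.14 and -0.0465, and Cfd in LPS-G1 vs. LPS-G0 was 0.0408. Leaving out single arrays, the ranges that crossed 0 were for C3 -0.0268 to 0.34 (LPS-G0 vs. C-G0) and -0.465 to 0.0853 (LPS-G1 vs. LPS-G2), for C5ar1 -0.27 to 0.19 (C-G1 vs. C-G2) and -0.0030 to 0.46 (C-G2 vs. C-G0), and for Cd59 -0.23 to 0.0144 (C-G1 vs. C-G2), -0.16 to 0.0081 (C-G2 vs. C-G0) and -0.20 to 0.0245 (LPS-G2 vs. LPS-G0). For Cfb they were -0.77 to 0.38 (C-G1 vs. C-G0), -0.14 to 0.82 (C-G1 vs. C-G2), -0.0912 to 0.24 (LPS over diets) and -0.16 to 0.69 (LPS-G0 vs. C-G0), for Cfd -0.42 to 0.23 (C-G1 vs. C-G0), -0.0465 to 0.61 (C-G1 vs. C-G2) and -0.33 to 0.0408 (LPS-G1 vs. LPS-G0), and for Cfp -0.0750 to 0.0690 (LPS-G1 vs. LPS-G2).

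Same-numbered arrays did not vary together in every pair (residual correlations from -0.307, mean 0.111, against -0.038 for other numbers), so the replicate number is no pairing. With it as a replicate block 0 complement genes were called in each comparison, and probes called overall moved from 921 to 1269 in LPS-G1 vs. LPS-G0, from 3 to 600 in C-G1 vs. C-G0, from 3 to 43 in C-G2 vs. C-G0 and from 1 to 1319 in the F test. Over the other alternatives the overall count ranged from 0 to 2844 in LPS-G1 vs. LPS-G0 and from 0 to 1142 in LPS-G0 vs. C-G0 (1 in the fit as reported), both highest with array weights. Leaving out single arrays, they ranged from 0 to 1936 and from 0 to 1136. Dim signal limits C1qa, Cd55 and C3ar1.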
